A study of Danio rerio with 12 samples.

Results

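The genes of blood coagulation, fibrinolysis, complement and the acute phase were read from a table of liver RNA levels in zebrafish by their symbols. The rule listed 57 symbols and 4 starts of symbols (cfb, cfh, c3a. and c3b.). Of the listed symbols, 40 were found, and 17 were not analysed here: f8, f13a1a, f13b, procb, klkb1, c2, c4, c4b, c5, c7, c7a, c7b, cfi, masp1, mbl2, crp and hp. No symbol began with c3a. or c3b., and the other starts brought 6 rows, which were cfb, cfh and the factor H-like genes cfhl1 to cfhl4. The set therefore held 46 of the 14581 genes of the table. Levels were FPKM values (sequenced fragments per length of transcript and per mapped total of the library), so levels of different genes can be set side by side. A gene entered the tests when 3 or more of the 12 libraries reached 1 FPKM, as 45 members and 9190 genes in all did. The member left out was f3a, a gene of tissue factor, the trigger of clotting, at 0 to 1.07 FPKM.

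Livers came from adult wild-type zebrafish, 3 libraries in each of 4 groups: males on DMSO, males on β-estradiol, females on DMSO and females on β-estradiol. All fish were given the agent or its solvent every day for 6 weeks, beginning at an age of 3 months, and lived in individual tanks so that feeding could be controlled. The title of the study concerns estrogen sensing and the difference between the sexes in liver growth. The labels do not say whether each library was a separate fish, so p-values describe the spread between libraries, which may be technical. Library numbers go from 7 to 12 under DMSO and from 19 to 24 under estradiol. Within each range the males hold the lower numbers and the females the higher ones. What the numbers stand for is not given in the sources used here. If they follow an order of handling, its effect cannot be told apart from that of treatment or of sex.

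The liver makes most plasma proteins, among them nearly all clotting factors. Clotting is a chain of proteases (factors VII, IX, X and prothrombin) that ends when thrombin turns soluble fibrinogen into fibrin, and it is held in check by antithrombin and the protein C pathway, while plasmin dissolves the clot. Complement is a related plasma cascade in which C1q or lectins recognise a surface, C3 is cleaved and deposited, and the terminal components assemble a membrane pore, with factor H and C1 inhibitor as brakes. In mammals many of these proteins are acute phase proteins, whose synthesis in hepatocytes changes in inflammation, and estrogens are known to alter the plasma levels of several clotting proteins.

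Several libraries stood apart before any comparison. Of 25 oocyte and ovary genes in the table, the mean log2(FPKM + 1) was 6.23, 1.60 and 5.08 in male estradiol replicates 1 to 3 and 6.25, 0.18 and 4.36 in female estradiol replicates 1 to 3, against 0.02 to 0.24 in the male DMSO and 0.70 to 3.17 in the female DMSO libraries. The figla and h1m genes of that list were at 0 in all 12 libraries. Intestine genes were high in female DMSO replicates 1 and 2 (5.96 and 6.24, against 1.51 to 3.14 in the other libraries), and exocrine pancreas genes lay at 5.98 to 8.07 in the DMSO libraries and at 1.14 to 4.39 in the estradiol libraries. The 13 hepatocyte genes, none of them a member of the set, had a mean log2 level of 7.99 to 9.86 in the 12 libraries. Hepatocyte RNA was thus abundant in each library, which does not settle the labels of tissue or sex. The transcription factor gene hnf4a of this list was at 0.0672 FPKM in female estradiol replicate 1 and at 6.12 to 46.1 in the other libraries. The oocyte level of male estradiol replicates 1 and 3 lay above every female DMSO library. How oocyte RNAs came into libraries labelled male liver was not tested. Among the hepatocyte genes, tfa (transferrin) was listed at 0 in every DMSO library and at 2076 to 16527 FPKM in the estradiol libraries. It thus raised the mean of the list in the estradiol libraries only. Even with tfa, the summed level of the list was 92541 to 107182 FPKM in male DMSO and 14009 to 43480 in male estradiol libraries. In females the sum was 50196.5 to 67675 under DMSO and 26843 to 31989 under estradiol. Most of each DMSO sum was fabp10a. The part of this lower hepatocyte level in the estradiol changes of the members was not tested. In all, 46 genes were at exactly 0 in a whole group and at 1 FPKM or more in another, 0 of them members. The lowest hepatocyte levels, 7.99 and 8.36, belonged to male estradiol replicate 1 and female estradiol replicate 1.

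The 46 members made up 4.02% to 5.55% of the summed FPKM in the male DMSO libraries and 1.70% to 2.06% in the female DMSO libraries. Under estradiol the shares were 1.28%, 8.36% and 2.06% in male replicates 1 to 3 and 0.428%, 1.38% and 1.79% in female replicates 1 to 3. Male estradiol replicate 2 thus had the highest share of all 12 libraries and its group mate, replicate 1, a share below every DMSO library. Replicate 2 was the highest library of its group for 44 of the 45 tested members (41.3% of all genes tested), and replicate 1 was the lowest for all 45 (35.4%). A library can have a low share because it holds fewer hepatocytes, because each hepatocyte holds less of these RNAs, or because other RNAs take up more of the sum. In bulk tissue these cannot be told apart from the shares, and the part of each was not tested.

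**Figure D1:**
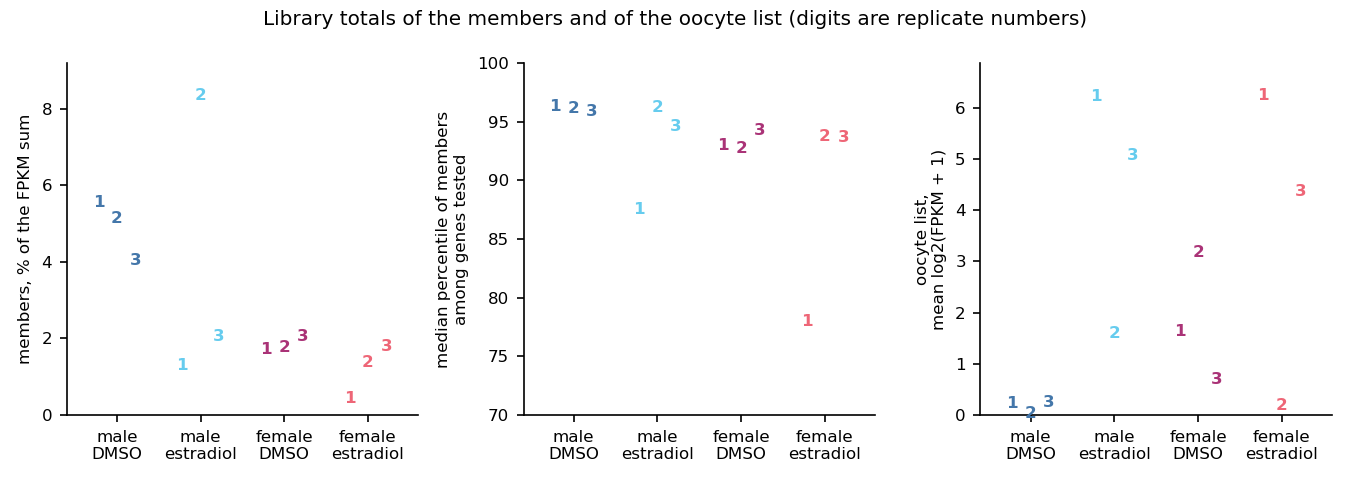
Each digit is the replicate number of a library, placed by group along the horizontal axis. The left plot gives the share of the summed FPKM taken by the 46 members in percent, the middle plot the median percentile of the tested members among all genes tested (axis from 70 to 100), and the right plot the mean log2(FPKM + 1) of the oocyte list. Male estradiol replicate 2 has the highest member share (8.36%), and female estradiol replicate 1 has the lowest share (0.428%) and the lowest percentile (77.9).

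Members were among the most abundant RNAs of the liver. The median member stood at percentile 95.9 to 96.3 of the genes tested in the male DMSO libraries, 92.7 to 94.3 in the female DMSO libraries and 77.9 to 96.2 under estradiol. In male DMSO livers the order by mean FPKM (SD, n = 3) began with hpx, which encodes the heme scavenger hemopexin, at 8849 ± 2983. The fibrinogen chains followed, with fgg (gamma) at 5537 ± 1311, fgb (beta) at 4387 ± 934 and fga (alpha) at 3383 ± 555. These 4 levels overlapped between neighbours in the order. After a gap came cfb (factor B, the protease of the alternative C3 convertase) at 1134 ± 45.5, cfhl4 (a factor H-like gene) at 1110.1 ± 89.8 and f2 (prothrombin) at 1107 ± 282, which did not differ beyond their spread. At the other end were c1qa, c1qb and c1qc, the chains of C1q, at 5.8 ± 1.57, 5.52 ± 1.5 and 12.3 ± 5.85. Still lower were f13a1b, a gene of the fibrin-crosslinking factor XIII, at 1.1 ± 0.333, and saa, the acute phase protein serum amyloid A, at 1.03 ± 1.07. The clotting inhibitor gene proza and the terminal complement gene c6 lay in the range of the C1q chains, at 7.02 ± 0.448 and 10.6 ± 2.91. In mammals macrophages and related cells are a main source of C1q and of the factor XIII A chain.

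**Figure D2:**
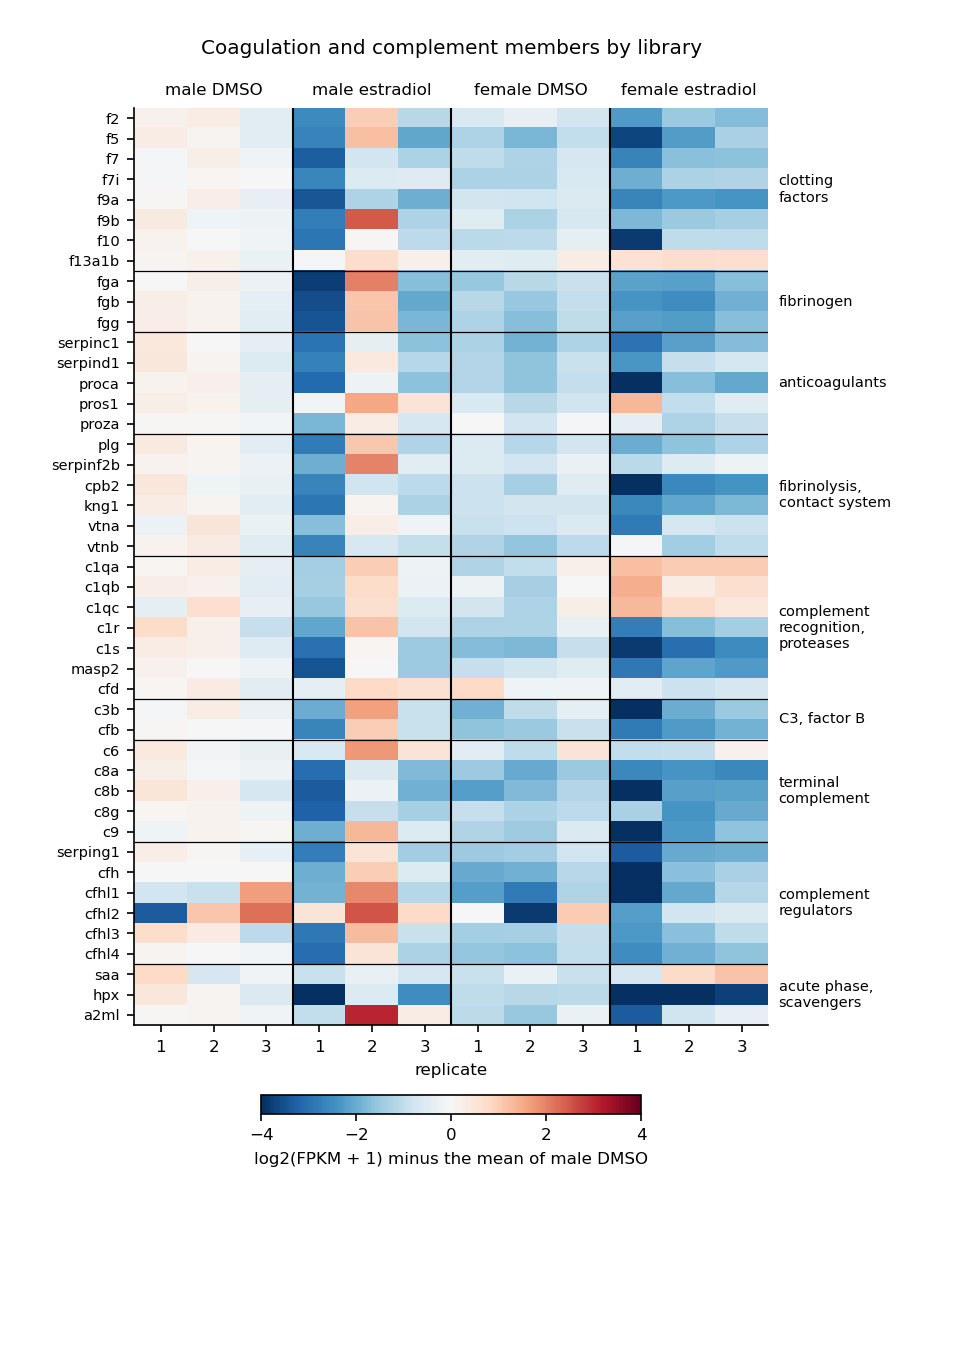
Rows are the 45 tested members by role, columns the 12 libraries by group and replicate, and the colour is log2(FPKM + 1) minus the mean of the male DMSO libraries, with values beyond 4 in either direction drawn in the end colour. Most rows are blue in female DMSO and in female estradiol libraries, male estradiol replicates 1 and 2 differ in colour within a group, and the rows of c1qa, c1qb, c1qc and f13a1b are red in the female estradiol columns.

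Female against male livers under DMSO were compared first, since they give the level of the set in each sex without added estrogen. Nearly all members were lower in females: the log2 difference was below 0 for 44 of 45 members (46.8% of all genes tested), and 33 members had every female library below every male library, where 12.2% of all genes tested did. None had every female library above every male library (18.6% of all genes). The median log2 difference of the members was -0.98, against 0.05 over all genes tested. By limma with Benjamini-Hochberg adjustment over the 9190 genes, 0 members passed 0.05, where 0.555% of all genes did. The lowest adjusted p, that of c8a, was 0.221, and 4 of the 45 members had an unadjusted p below 0.05, each lower in females. Of the 9190 genes tested 1058 had one, 464 lower and 594 higher. The call depends on which libraries set the spread: fitted on the 6 DMSO libraries alone, limma called 19 members lower in females, where 3.24% of all genes were called lower, and the same 19 were called when the 4 oocyte-rich estradiol libraries (replicates 1 and 3 of each sex) were left out (3.26% of all genes).

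Each role held members without overlap between the sexes, from 2 of 7 in the recognition group to all 3 fibrinogen chains. In the clotting factor role, which includes f7i and f13a1b, 6 of 8 members did not overlap between the sexes. The level of f7 (factor VII, which starts the cascade with tissue factor) was 174, 214 and 165 FPKM in male replicates 1 to 3 and 89.3, 77.1 and 115 in female replicates 1 to 3. That of f7i, in zebrafish an inactive homolog that inhibits factor VII, was 248, 277 and 268 in males and 109.9, 109 and 173 in females. Both genes had their highest female library below their lowest male library. Prothrombin differed less: f2 was at 1220.4, 1315 and 786 in males and 713, 852 and 632 in females, so that the ranges overlapped. All 3 fibrinogen chains were apart, with fgg at 6538, 6019 and 4053 in males and 2322, 1679 and 2698 in females and fgb at 5066, 4773 and 3322 in males and 2009, 1517 and 2225 in females. The male mean of fgg was 2.48 times the female mean, and that of fgb 2.29 times.

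Inhibitors of clotting and the fibrinolytic system showed the same order. The antithrombin gene serpinc1 was at 790.3, 579 and 447 FPKM in males and 243, 159 and 252 in females, a log2 difference of -1.46 (SE 0.59, limma adjusted p = 0.368). The protein C gene proca was at 318, 332 and 225 in males and 126, 92.8 and 149 in females. In both genes each female library was below each male library, as in 4 of the 5 inhibitors of clotting. All 6 genes of fibrinolysis and the contact system were apart too, among them plg (plasminogen, 884, 742 and 511 against 477, 314 and 421), kng1 (kininogen, the precursor of bradykinin, 1138, 1010.0 and 697 against 515, 562 and 556) and cpb2 (the carboxypeptidase that slows fibrin breakdown, 252, 166 and 152 against 102, 73.3 and 131).

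Within complement, both C3 and factor B, 4 of the 5 terminal components and 4 of the 6 regulators were apart between the sexes. The C8 alpha chain gene c8a was at 371, 303 and 275 FPKM in males and 114, 76.3 and 111 in females, and its log2 difference was -1.66 (SE 0.52). The gamma chain gene c8g was at 363, 376 and 295 in males and 182, 143 and 165 in females, and c9, the pore-forming component, at 845, 1051 and 978 in males and 414, 358 and 640.4 in females. Only c6 among the terminal components overlapped. Factor B (cfb) was at 1179, 1133 and 1088 in males and 370.2, 400.4 and 611 in females, and c3b, a C3 gene that RefSeq now lists as a c3a copy, at 318, 407 and 273 against 86.6, 162 and 252. Of the regulators, serping1 (C1 inhibitor) was at 988, 855 and 662 in males and 302, 312 and 483 in females. These were again ordered by sex without overlap. The cfhl1 to cfhl4 values are uncertain, though these genes are kept in the counts. RefSeq lists the name cfhl2 also as a synonym of cfhl4. Within the male DMSO libraries cfhl2 ranged from 0.617 to 73.1, while cfhl4 was at 1207, 1093 and 1030. How reads were shared between these genes was not tested. The recognition group was the exception, with c1s and masp2 apart among 7 members and the C1q chains overlapping. Hemopexin (hpx) was at 11671, 9149 and 5728 in males and 4192, 3930.4 and 4048 in females, and a2ml, named for an alpha-2-macroglobulin-like protease inhibitor, at 669.7, 695 and 580.3 against 313, 225 and 539.

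The hepatocyte list was also lower in the female DMSO libraries (mean log2 level 8.87 to 9.20, against 9.51 to 9.86 in males), and the intestine list was higher in 2 of them; the part of either in the sex difference was not tested. Without the 2 intestine-rich female libraries the median log2 difference of the members was -0.74, on the remaining female library, and 0 members passed. Under other scalings of the libraries the median lay between -1.22 and -0.92. Members lower in females without overlap numbered 35 after quantile normalization (18.2% of all genes), 36 with median-of-ratios factors (17.4%) and 36 on rescaling (20.6%). With the oocyte list level as a covariate the members' median shrank to -0.40, against -0.05 over all genes tested.

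**Figure D3:**
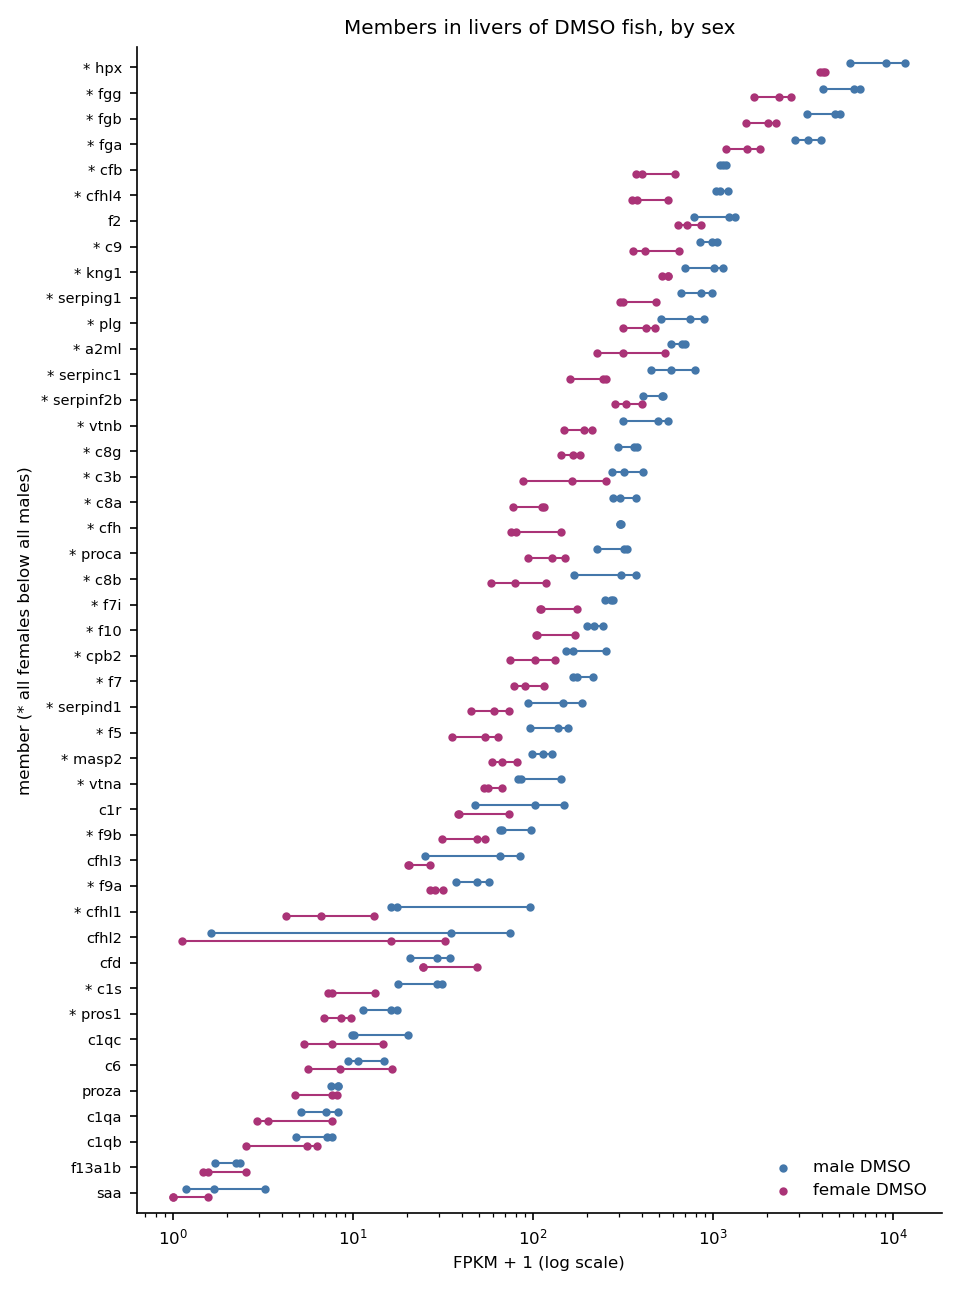
Each point is a DMSO library, blue for males and purple for females, with a line from the lowest to the highest library of a sex; the horizontal axis is FPKM + 1 on a log scale, and members are sorted by level. A star marks the 33 members whose 3 female libraries are all below the 3 male libraries; cfd is the only member with a log2 difference above 0, and it falls below 0 on rescaling.

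Estradiol in males was compared with DMSO in males, as a test of what added estrogen does to these RNAs in the sex with the higher levels. The gene f9a, which codes for a factor IX protease of the clotting cascade, fell, and no other member passed. It was at 47.9, 55.9 and 36.4 FPKM in DMSO replicates 1 to 3 and at 3.43, 19.1 and 11 in estradiol replicates 1 to 3, so the highest treated library was below the lowest control. Its log2 change was -2.20 (SE 0.48, limma adjusted p = 0.0264), and the control mean was 4.18 times the treated mean. Among the 45 members 0 rose and 1 fell, where 3.79% of all genes passed and 2.91% fell. The members' median log2 change was -0.98, against 0.21 over all genes tested. An unadjusted p below 0.05 was found for 11 of the 45 members, each lower under estradiol. Of the 9190 genes tested 2473 had one, 953 lower and 1520 higher.

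Groups did not overlap for 8 members in males, each lower under estradiol (11.4% of all genes were lower without overlap, 18.5% higher). Besides f9a these were f7, f7i, serpinc1, cpb2, vtnb, c8a and c8g. The f7 values under estradiol were 17.8, 106 and 75.6 FPKM, those of serpinc1 75.2, 447 and 189.8, and those of cpb2 28.8, 107 and 88.8. Estradiol values of c8a were 37.5, 209 and 92.1, with a log2 change of -1.79 (SE 0.52, limma adjusted p = 0.0776), and those of c8g were 35.1, 181 and 136, with a log2 change of -1.83 (SE 0.55, adjusted p = 0.0836). In each of the 8 genes replicate 1 was the lowest treated library, and in all but f7i replicate 2 was the highest. The count of members lower without overlap was 34 without male estradiol replicate 2 (23.5% of all genes), 14 without male DMSO replicate 3 (18.6%) and 13 with median-of-ratios factors (16.4%), and without male estradiol replicate 1 it was 8 (13.5%), with 5 higher (22.4%). With FPKM rescaled to the sum without vitellogenins and the 10 most abundant genes, 9 members were lower without overlap (8.14% of all genes) and 5 higher (25.2%).

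The other abundant members spread widely within the treated males. The fgg level was 492, 11971 and 1518 FPKM in estradiol replicates 1 to 3, that of fgb 367, 9341 and 1044, and that of fga, the third chain, 247, 13596 and 1020.3. Replicate 2 was above each male DMSO library and the other two were below them, so no direction can be given for fibrinogen in males. The same pattern held for f2 (186, 2136 and 496), plg (98.5, 1457 and 299), c3b (81.7, 1037 and 178), cfb (179.8, 2251 and 616), c9 (246, 2419 and 648) and serping1 (121, 1184 and 317). In a2ml replicate 2 stood at 5315, against 326 and 789 in the other treated males and 580.3 to 695 in controls. The ratio of fga to fgg was 1.14 in replicate 2 and 0.502 to 0.922 in the other 11 libraries, while that of fgb to fgg stayed between 0.672 and 0.904 in all 12.

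Which treated male libraries enter decides the count in males. Without replicate 2, limma called 22 members lower (8.39% of all genes), with a median log2 change of -1.85. Without replicate 1, 0 members passed and the median was -0.18. With the 4 oocyte-rich estradiol libraries left out and replicate 2 as the lone treated male, f9b, fga, serpinf2b and a2ml rose (4.58% of all genes) and the median was 0.70; the lone library was then assumed to vary like the other groups. The f9a call was lost in that fit (adjusted p = 0.0717), on rescaling (0.0678), in the fit on the males alone (0.0981), with the oocyte level as a covariate (0.230), without the 2 intestine-rich female libraries (0.0762) and without 5 of the 6 male libraries in turn (0.0505 to 0.116), and its log2 change stayed between -2.69 and -1.23.

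**Figure D4:**
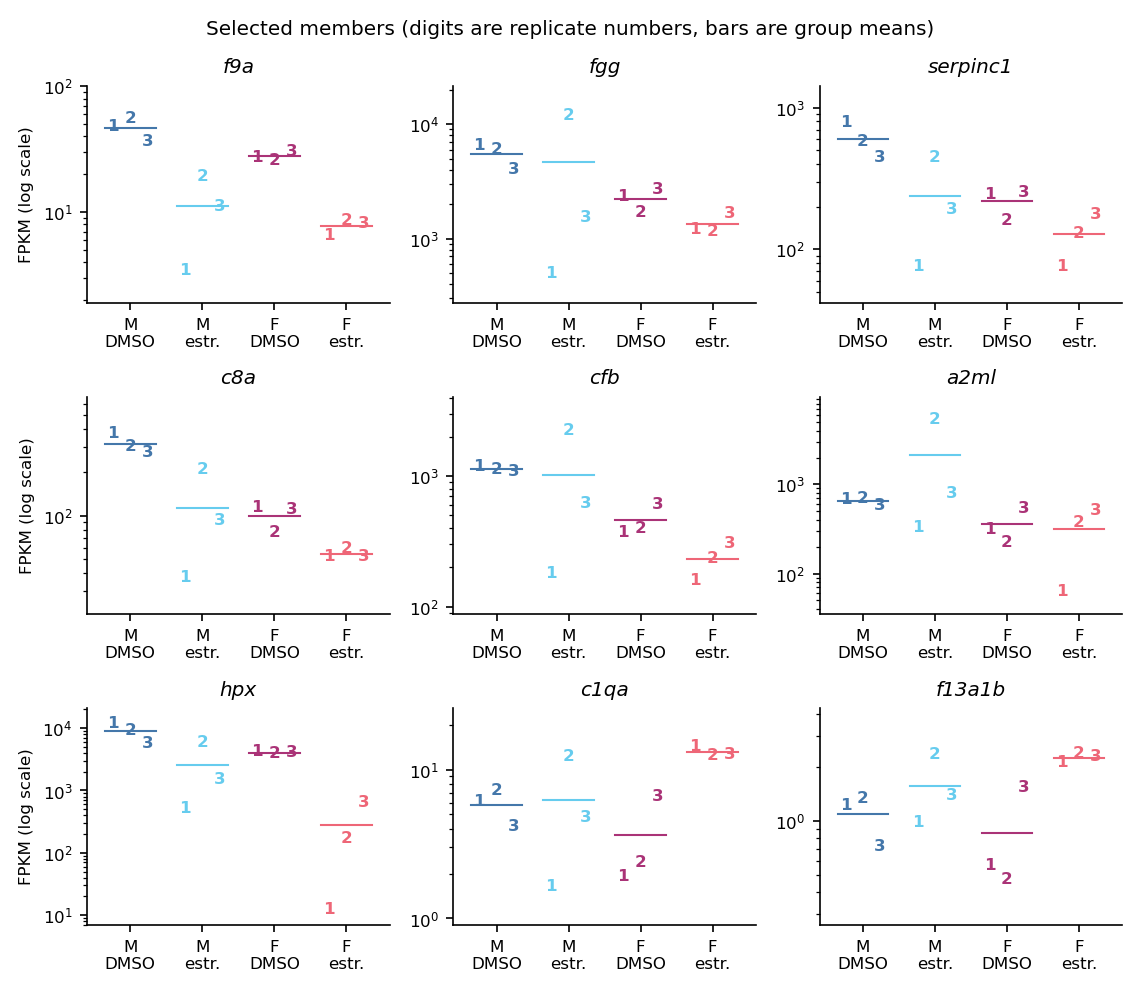
FPKM on a log scale for 9 members, with digits for the replicate numbers and a bar for each group mean; M and F are males and females, and estr. is estradiol. In f9a each estradiol library is below each DMSO library of the same sex, in fgg, cfb and a2ml male estradiol replicate 2 lies above the male DMSO libraries, hpx is lowest in female estradiol, and c1qa and f13a1b are higher in female estradiol than in female DMSO.

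In females, estradiol was compared with DMSO on top of their own ovarian estrogen. The hemopexin gene hpx fell: its level was 4192, 3930.4 and 4048 FPKM in DMSO replicates 1 to 3 and 12.5, 173 and 639.8 in estradiol replicates 1 to 3. The controls agreed closely, the treated libraries differed among themselves by more than an order of magnitude, and the groups were far apart. The log2 change was -5.15 (SE 1.17, limma adjusted p = 0.0415), and the mean was 14.8 times higher in controls. It was the only member past the threshold (0 rose and 1 fell, where 2.73% of all genes passed and 2.24% fell). An unadjusted limma p below 0.05 was found for 11 of the 45 members, 5 higher and 6 lower under estradiol. Of the 9190 genes tested 1743 had one, 537 higher and 1206 lower. The median log2 change of the members was -0.81, against -0.08 over all genes tested. The hpx call was lost in 15 of 25 alternatives (adjusted p up to 0.475), with a log2 change between -6.39 and -3.60 in all of them. Leaving out the 4 oocyte-rich libraries, with replicate 2 as the lone treated female, limma called f9a, masp2, c8g and hpx lower (3.94% of all genes).

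Without overlap, 21 members were lower under estradiol in females and 4 higher, where 18.8% of all genes were lower and 9.98% higher. Scaling moved this split. Quantile normalization gave 8 lower (14.7% of all genes) and 7 higher (13.2%), median-of-ratios factors gave 15 (15.4%) and 5 (13.3%), and rescaling gave 7 (8.59%) and 5 (17.3%). Against the lone female control left without the 2 intestine-rich libraries, 35 were lower (31.5%) and 5 higher (23.9%). The lower ones under each of the 4 scalings were f9a, cpb2, kng1, c1s, masp2, c8g and hpx. The f9a level went from 27.3, 25.8 and 30.5 FPKM in controls to 6.49, 8.64 and 8.13, with a log2 change of -1.73 (SE 0.48, limma adjusted p = 0.0796). That of cpb2 was 102, 73.3 and 131 in controls and 3.91, 29.9 and 34.8 under estradiol (log2 change -2.51, SE 0.72, adjusted p = 0.0871), and that of kng1 515, 562 and 556 against 156, 221 and 269. The lectin pathway protease gene masp2 was at 58.3, 66.3 and 80.2 in controls and 14.4, 24.9 and 22.6 under estradiol. In these genes the ranges were apart and the adjusted p missed 0.05.

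The 3 fibrinogen chains did not overlap in females on the deposited scale, unlike in males. The fgg values were 2322, 1679 and 2698 FPKM in controls and 1191, 1151 and 1666 under estradiol, and the fgb values 2009, 1517 and 2225 against 848, 774 and 1136. Log2 changes were -0.73 (SE 0.88) and -1.06 (SE 0.88), smaller than or close to their errors. Under the 3 other scalings the ranges overlapped, except for fgb with median-of-ratios factors. For f2 (713, 852 and 632 against 226, 386 and 325), cfb (370.2, 400.4 and 611 against 158, 233 and 303), c9 (414, 358 and 640.4 against 22, 193 and 310.2) and serping1 (302, 312 and 483 against 80.5, 204 and 212) the treated libraries were also below the controls, on the deposited scale and with median-of-ratios factors. Antithrombin (serpinc1, 75.8, 130.0 and 177 under estradiol), cfhl4 (199, 292 and 361) and a2ml (63.2, 373 and 514) overlapped with the controls.

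The C1q chains went the other way. The c1qa level was 1.92, 2.38 and 6.62 FPKM in female controls and 14.4, 12.4 and 12.6 under estradiol, that of c1qb 4.57, 1.53 and 5.32 against 16.5, 6.85 and 8.93, and that of c1qc 6.6, 4.33 and 13.7 against 29.8, 20.5 and 15.9. Each treated library was above each control in all 3 genes, under each of the 4 scalings. The log2 changes were 1.74 (SE 0.55, limma adjusted p = 0.111), 1.31 (SE 0.55, adjusted p = 0.218) and 1.41 (SE 0.57, adjusted p = 0.201), so none passed. The factor XIII gene f13a1b was at 0.562, 0.471 and 1.55 in controls and 2.13, 2.39 and 2.3 under estradiol, apart on the deposited scale but not on rescaling. In the male groups c1qa overlapped (6.05, 7.23 and 4.11 in controls, 1.63, 12.3 and 4.73 under estradiol). The 18 macrophage and leukocyte markers in the table had a summed level of 349.6 to 579 FPKM in female controls and 258 to 346 under estradiol, and the macrophage gene mpeg1 was at 5.05, 4.04 and 4.42 against 5.35, 2.93 and 4.40. The sums did not overlap and were lower under estradiol, while mpeg1 overlapped. In the controls the sum was mostly cd74a and cd74b, and the other 16 markers summed to 41.5 to 75.1 in controls and 37 to 173 under estradiol. By group mean 11 of the 18 markers were higher under estradiol and 7 lower, and only havcr1 was apart, at 3.74, 1.5 and 2.53 in controls and 7.19, 4.13 and 4.98 under estradiol. The macrophage genes csf1ra (1.04, 0.527 and 1.25 against 0.222, 3.25 and 6.24) and cxcr3.2 (1.63, 0.699 and 1.86 against 1.62, 3.23 and 4.43) overlapped, and timd4 was at 0 in all 3 controls and 2 treated libraries. The part of these cells in the C1q values was not tested. The genes c1qa, c1qb, c1qc and f13a1b fall outside the rule for naming genes and were picked after their values were seen. The same holds for fga, c1s, vtnb, saa, proza, c6, cfd, cfhl2, f9b and serpinf2b.

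Estradiol in the 2 sexes gave 5 members without overlap in both, each lower under estradiol: f7, f9a, cpb2, c8a and c8g, a count to be read against the 5.18% of all genes that were lower without overlap in both. Of these, f9a, cpb2 and c8g were apart in both sexes under each of the 4 scalings. The estradiol effects differed between the sexes in 0 members by the interaction term of limma, where 0.261% of all genes passed. With an unadjusted p below 0.05 there were 4 members, c1qa (interaction 1.93, SE 0.78), c1qc (1.89, SE 0.80), vtnb (vitronectin, 1.88, SE 0.79) and saa (1.72, SE 0.69), each with a more positive log2 change in females, and the lowest adjusted p was 0.396. Of the 9190 genes tested 987 had such a p, 278 with a positive and 709 with a negative interaction. The saa level was at most 3.09 FPKM and listed at 0 in 3 libraries. It reached 1 FPKM only in male DMSO replicate 1 (2.23) and female estradiol replicates 2 and 3 (2.16 and 3.09). Both of these groups enter the interaction with a plus sign. Passing the filter thus favoured a positive interaction for saa, and nothing is concluded from it.

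**Figure D5:**
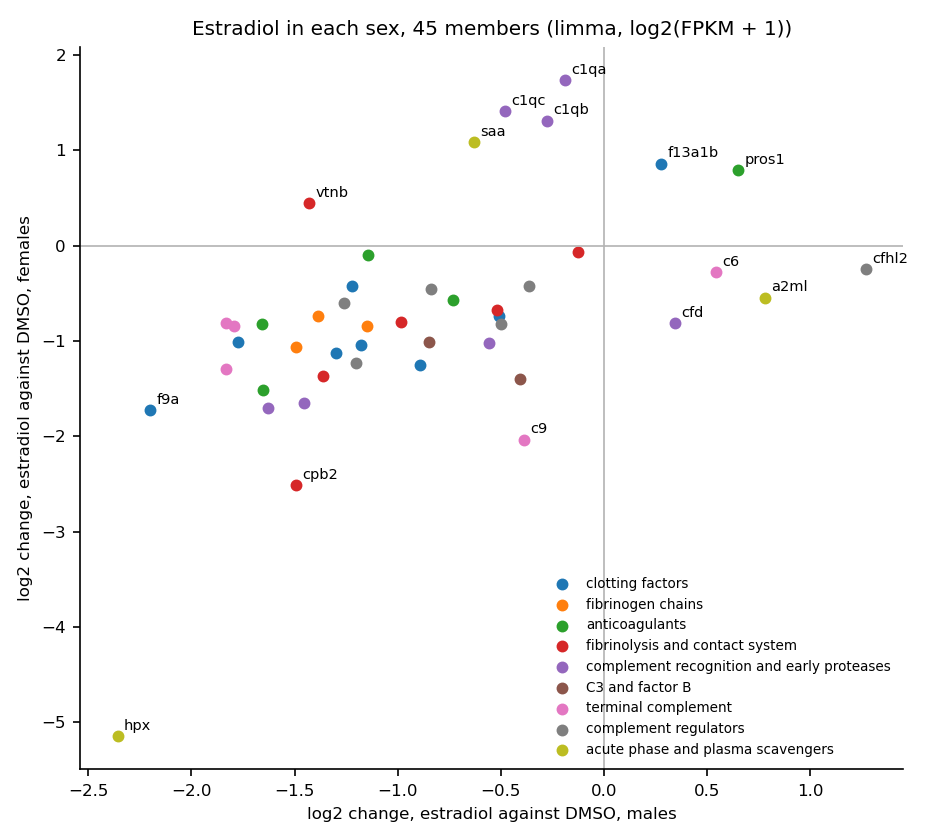
Each point is a tested member, coloured by role, with its log2 change under estradiol in males on the horizontal axis and in females on the vertical axis (limma on log2(FPKM + 1)); f9a passed in males and hpx in females. Most points lie at the lower left, and c1qa, c1qb, c1qc, saa and vtnb lie above 0 for females and below 0 for males, where c1qa and c1qb turn positive on rescaling; no interaction passed the threshold.

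Females against males under estradiol gave 0 members past the threshold, where 0.109% of all genes passed, and 10 with an unadjusted p below 0.05 (8 lower in females, 2 higher). Of the 9190 genes tested 1017 had such a p, 774 lower and 243 higher. On the deposited scale with all libraries, 3 members were without overlap: c1qa was higher in females (2.62% of all genes), and cfd (factor D, which cleaves factor B) and cfhl2 were lower (9.68%). The cfd level was 20.1, 47.3 and 41.3 FPKM in males and 19, 14.3 and 16.4 in females. The count moved with single libraries: 1 higher (5.72% of all genes) and 29 lower (17%) without male estradiol replicate 1, 5 higher (7.71%) and 2 lower (17%) without male estradiol replicate 2, 2 higher (4.96%) and 3 lower (18.6%) without female estradiol replicate 1, and 2 higher (5.69%) and 8 lower (15.2%) without female estradiol replicate 3. Scaling moved it to 3 higher (5.88%) and 2 lower (4.15%) after quantile normalization, 2 higher (5.34%) and 1 lower (5.01%) with median-of-ratios factors, and 1 higher (1.8%) and 7 lower (10.6%) on rescaling. The median log2 difference of the members was -0.78, against -0.27 over all genes. It swung with the treated males, at 0.01 without replicate 2 and -1.69 without replicate 1. This comparison shares its libraries with those of estradiol within each sex.

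Genes around the set were read from lists of other pathway genes. Of 8 tested genes of coagulation and fibrinolysis outside the set, f3b, the other tissue factor gene, rose in males: it was at 0.609, 0.494 and 0.408 FPKM under DMSO and at 10.7, 3.24 and 3.81 under estradiol (log2 change 2.05, SE 0.45, limma adjusted p = 0.0272). The treated libraries were all above the controls, replicate 1 most, and the call held in 15 of 24 alternatives. In females f3b was at 2.38, 0.767 and 0.801 under DMSO and 2.82, 0.762 and 1.23 under estradiol, which overlapped, and its interaction did not pass (adjusted p = 0.314). Of 6 genes of the vitamin K cycle and factor export, which modify and release several clotting factors, 0 passed in any comparison. In the estradiol comparisons within a sex, furina, a protease that trims precursors, had the smallest p of these (females, log2 change -0.91, SE 0.44, limma adjusted p = 0.288). Of 2 tested complement receptors and membrane regulators, clu and c1qbp, 0 passed either.

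Of 9 other plasma protein genes, lect2l, named for a leukocyte chemotaxin secreted by liver, rose in females, from 1.25, 2.39 and 3.10 FPKM under DMSO to 231, 42.5 and 68.0 under estradiol (log2 change 4.81, SE 0.97, limma adjusted p = 0.0264). The groups were far apart, and the call held in 19 of 25 alternatives. In males lect2l was at 48.7 in estradiol replicate 2 and between 1.43 and 6.68 in the other 5 libraries. Of these 9, the genes cp, ambp, rbp4, ttr and gc also stand in the hepatocyte list. Over the 9 genes the median log2 difference of females against males under DMSO was -0.82 (members -0.98). Under estradiol the median change was -1.29 in males and -0.74 in females (members -0.98 and -0.81). Without overlap, 5 were lower and 0 higher in females under DMSO (12.2% and 18.6% of all genes). Estradiol gave 3 lower and 0 higher in males (11.4% and 18.5%) and 5 and 2 in females (18.8% and 9.98%). The shift was thus not particular to the members. The ceruloplasmin gene cp, which encodes a copper-carrying ferroxidase, was at 1947, 1349 and 1533 in male controls and 122, 765 and 400.3 under estradiol, with a log2 change of -2.25 (SE 0.58) that missed the threshold (limma adjusted p = 0.0518).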

How the data were processed

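Reads were trimmed with cutadapt, aligned to danRer7 with TopHat2 2.0.11 and quantified with Cufflinks 2.2.1, per the submitters' processing notes; the annotation is not given in the sources used here. The authors deposited FPKM values, 1 per gene symbol and library. The header names no unit, and FPKM was taken from the values and from the use of Cufflinks. Library kits kept strand, per the labels' protocols; whether quantification used it is not given in the sources used here. Whole reads could not be recovered, so the depth is unknown and no counting interval is given. This was looked for in log2 ratios between 2 libraries, over genes under 0.5 FPKM in both. In the pair of libraries with the largest share, 1.45% of 1103 ratios fell in 1 bin of 0.01.

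On log2(FPKM + 1), limma 3.58.1 in R 4.3.3 fitted 4 group means to the 12 libraries (eBayes with an intensity trend), with two-sided p-values adjusted by Benjamini-Hochberg over 9190 genes and a threshold of 0.05. "Rose" and "fell" mean past it. The pseudocount of 1 understates changes of low genes. An exact permutation test of 3 against 3 libraries cannot go below 0.1 and was not used. The fit was run on simulated data with noise drawn independently for each gene and library. Shifts of many genes within a library, as in the treated males, were not simulated, so the fit was not tested for them. Sums of FPKM ran from 304905 to 1217095, so other scalings were tried, as were other pseudocounts, filters, spread models, subsets of libraries and covariates. Figures were drawn with matplotlib 3.10.9 in Python 3.11.15. Of the members, 41 carry a current RefSeq symbol, 4 an older name and 1 (a2ml) none; no sequence or coordinate was used.

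The members and the lists, and the libraries left out as rich in oocyte or intestine transcripts, were chosen with earlier results of these data known. Named genes were members past the threshold, the 2 most abundant of each role, members without overlap in both sexes, and, in other lists, genes past the threshold or with the smallest p.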

Additional observations from a re-analysis of the deposited data

How the results depend on the processing

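The count of members past the threshold was 1 in males and 1 in females, and 0 in the other comparisons. In males it was 0 on rescaling, in the fit on the groups compared alone, with the oocyte level as a covariate and without the 2 intestine-rich female libraries, and 4 without the 4 oocyte-rich estradiol libraries. In females it was 0 with no filter on low values, quantile normalization, median-of-ratios scaling, rescaling and without the 2 intestine-rich libraries, 2 with the oocyte covariate (c1qa rose and hpx fell) and 4 without the 4 oocyte-rich libraries. In the fit on the female groups alone it was 1, but the member was f9a and not hpx. Females against males under DMSO gave 19 in the fit on those groups alone and 19 without the 4 oocyte-rich libraries, females against males under estradiol gave 20 there, and the interaction 7, but these last 2 set a lone male library (replicate 2) against a lone female library and describe those libraries, not the sexes. Leaving out 1 library at a time gave 0 to 22 in males (22 without male estradiol replicate 2), 0 to 4 in females and 0 in the other 3 comparisons; the hpx call was lost without any of the 3 female DMSO libraries, female estradiol replicate 1 or 2, any male DMSO library or male estradiol replicate 3. The cause of these moves was not tested. The share of all genes called is not given for the oocyte covariate fit, the fit on the female groups alone or, in females, the fits without 1 library. It is also not given for females against males under estradiol and for the interaction, both without the 4 oocyte-rich libraries. The counts of all these fits thus do not show whether members were called more often than other genes. Without the 4 oocyte-rich libraries the members' median was -2.443 for females against males under estradiol (-0.333 over all genes). For the interaction it was -1.395 (-0.399 over all genes). The members' median in males was 0.27 with the oocyte covariate and 0.70 without the 4 oocyte-rich libraries. Rescaling moved the median of all genes by 0.40 in males and 0.27 in females, and relative to all genes the members' median was then -1.23 and -0.67, against -1.20 and -0.73 on the deposited scale. With the replicate number as a block, 1 member passed in males and 1 in females and 0 elsewhere, the same calls. Deviations of same-numbered libraries correlated at -0.43 to 0.57, so the numbers do not pair libraries by the rule used. Between the sexes under estradiol they correlated at 0.494 for replicate 1 and 0.573 for replicate 2, each best with its own number. For replicate 3 the value was 0.009. Whether same-numbered treated libraries are independent was not tested. An unknown depth leaves the precision of low members such as saa and f13a1b unstated.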

Other observations

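Of 15 tested hepatocyte transcription factor genes, which drive the plasma protein program, 0 passed in any of the 5 comparisons. The lowest p under estradiol was that of foxa2, a pioneer factor of liver genes, at 43.4, 41.3 and 24.1 FPKM in male controls and 4.43, 6.73 and 19.9 under estradiol (log2 change -1.92, SE 0.51, limma adjusted p = 0.0603). All treated males were below all male controls, and in females foxa2 was at 28.1, 11.4 and 19.2 in controls and 5.41, 8.22 and 6.97 under estradiol.

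Of 15 tested genes of acute phase signalling, 0 passed in any comparison. In females against males under DMSO all 15 had a log2 difference below 0, where 46.8% of all genes did, and after quantile normalization 14 did. The median of these differences was -0.28, and 0 of the 15 had an unadjusted limma p below 0.05. Without overlap 2 of them (13.3%) were lower in females and 0 higher, near the 12.2% of all genes that were lower. The interferon regulatory factor gene irf1b had the lowest p in males, at 13.8, 12.5 and 6.25 FPKM under DMSO and 1, 4.42 and 1.83 under estradiol (log2 change -1.85, SE 0.59, limma adjusted p = 0.0957), with the treated libraries below the controls.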
